A study of Mus musculus with 9 samples.

Results

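The genes described here are 46 genes of the type I interferon response, measured by RNA-seq in Mac1+ cells sorted from the bone marrow of C57BL/6 mice (9 libraries). They were chosen by gene symbol as known interferon-induced genes, and their values in these libraries are no part of the rule. All 46 are among the 23420 symbols of the expression table, and all 46 are among the 10868 genes that were tested because they reached 1 RPKM (reads per kilobase of transcript, divided by a total for each library) in at least 2 libraries. The study concerns a mouse model of early thymic progenitor leukaemia, and compared 3 genotypes.

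Every mouse carried floxed Ezh2 and floxed Runx1 (Ezh2 fl/fl Runx1 fl/fl), so the control group, called WT in the labels (n = 3), has these alleles too, without Cre and without the Flt3 mutation. The ITD group (n = 2) adds Flt3 ITD/+, 1 allele of the receptor Flt3 with an internal tandem duplication. The DKOITD group (n = 4) adds Flt3 ITD/+ and Rag1Cre+, a Cre recombinase driven by Rag1, a gene active in early lymphoid progenitors. Mac1, the integrin encoded by Itgam and Itgb2, is found on neutrophils, monocytes and part of the dendritic cells. No age is given, no group carries Rag1Cre without the Flt3 mutation, and the labels do not say whether each library is from a separate animal. P-values therefore measure the spread between libraries, which may be in part technical. The labels carry a further number per library, of unstated meaning, which is 228, 267 and 274 for DKOITD 1 to 3 and between 385 and 393 for the other 6 libraries, DKOITD 4 included.

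Each library came from 100 sorted cells and was made by the Smart-seq2 protocol, which covers whole transcripts and keeps no strand. Reads recovered from the steps of the RPKM values ranged from 2825728 in DKOITD 2 to 23124435 in WT 1. The total behind the deposited RPKM, worked out from the same steps and annotated exon lengths, was 0.703 to 0.810 times the recovered reads in WT, 0.853 and 0.919 times in ITD and 1.13 to 1.44 times in DKOITD, so the scaling differed between the groups. Ezh2 was measured at 9.69, 2.05 and 12.4 RPKM in WT 1 to 3, 12.9 and 19.0 RPKM in ITD 1 and 2, and 18.1, 1.54, 8.04 and 10.2 RPKM in DKOITD 1 to 4. Runx1 was measured at 10.7, 13.02 and 3.53 RPKM in WT 1 to 3, 4.42 and 4.42 RPKM in ITD 1 and 2, and 16.4, 14.9, 17.6 and 10.4 RPKM in DKOITD 1 to 4. Differences are given on the log2(RPKM + 1) scale as value ± SE, and for DKOITD minus WT unless another pair is named. Neither gene was lower in DKOITD than in WT (differences of 0.14 ± 0.69 and 0.78 ± 0.46, limma adjusted p = 0.913 and 0.269). The sources used here do not name the deleted exons, so these whole-gene values do not check the genotype labels, which are taken as given. Itgam, which encodes a chain of the sorted antigen, was above 0 in all 9 libraries, at 78.1 to 143 RPKM in WT and ITD and at 11.0 to 39.0 RPKM in DKOITD.

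Type I interferons are secreted proteins that act through the receptor chains Ifnar1 and Ifnar2 and the kinases Jak1 and Tyk2. These kinases activate signal factors such as Stat2, which joins Irf9 in a complex that binds the interferon-stimulated response element, a short DNA motif with repeated GAAA letters, in the promoters of the induced genes. The products sense, cut, trap or modify viral nucleic acids and proteins, and some of them, such as Usp18, dampen the signal again. In myeloid cells many of these genes have a basal level that is set by low amounts of interferon.

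The element is visible in the DNA in front of several of the members. The promoter table used, from RefSeq on GRCm38.p6, covers 250 bases before and 50 bases after each annotated start, and holds 35 of the 46 genes. The element was searched as GAAA, any 2 bases, GAAA. These letters were found on either strand in 21 of these 35 genes (60.0%), and in 1079 of all 27025 genes in the table (3.99%). Of the 14 without the letters nothing follows except that these letters are not in this window. The 6 stretches below are the 160 bases before the annotated start, printed in the direction of transcription, with every match of these letters or of their reverse complement in capitals.
They are shown because Isg15 and Ifit3 are the classical genes of the response and are listed at 0 in DKOITD 2, because Bst2, Irgm1 and Ifi205 passed the test between DKOITD and WT, and because Ifi44 passed it with no match.
Isg15: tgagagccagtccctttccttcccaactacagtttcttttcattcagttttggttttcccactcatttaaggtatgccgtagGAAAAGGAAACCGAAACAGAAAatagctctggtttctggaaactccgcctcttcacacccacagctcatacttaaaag
Ifit3: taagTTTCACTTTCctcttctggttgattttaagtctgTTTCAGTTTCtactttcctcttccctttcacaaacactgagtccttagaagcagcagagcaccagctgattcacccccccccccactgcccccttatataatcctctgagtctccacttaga
Bst2: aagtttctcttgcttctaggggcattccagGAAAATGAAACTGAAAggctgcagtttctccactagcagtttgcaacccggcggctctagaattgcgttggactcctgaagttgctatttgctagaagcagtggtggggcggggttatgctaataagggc
Irgm1: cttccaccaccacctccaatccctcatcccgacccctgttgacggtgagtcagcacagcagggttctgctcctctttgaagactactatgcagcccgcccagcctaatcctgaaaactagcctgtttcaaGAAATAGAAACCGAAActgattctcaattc
Ifi205: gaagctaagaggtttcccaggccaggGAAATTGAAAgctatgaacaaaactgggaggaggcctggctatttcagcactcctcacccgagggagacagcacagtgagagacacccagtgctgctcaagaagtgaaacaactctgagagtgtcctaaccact
Ifi44: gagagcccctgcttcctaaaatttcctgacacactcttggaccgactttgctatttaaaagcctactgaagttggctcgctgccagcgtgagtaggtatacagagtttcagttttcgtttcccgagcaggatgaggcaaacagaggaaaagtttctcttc
The Isg15 stretch (chr4:156200819-156200978, minus strand) holds 3 overlapping matches, close together. The Ifit3 stretch (chr19:34583369-34583528, plus strand) holds 2 separate matches in the reverse orientation. The stretches of Bst2 (chr8:71537473-71537632) and Irgm1 (chr11:48871421-48871580), both on the minus strand, hold 2 overlapping matches each. Ifi205 (chr1:174031756-174031915, minus strand) has 1 match, and Ifi44 (chr3:151749911-151750070, minus strand) has none. In the 21 genes there were 32 matches, 25 of them before the start, and 10 genes had more than 1.

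**Figure D1:**
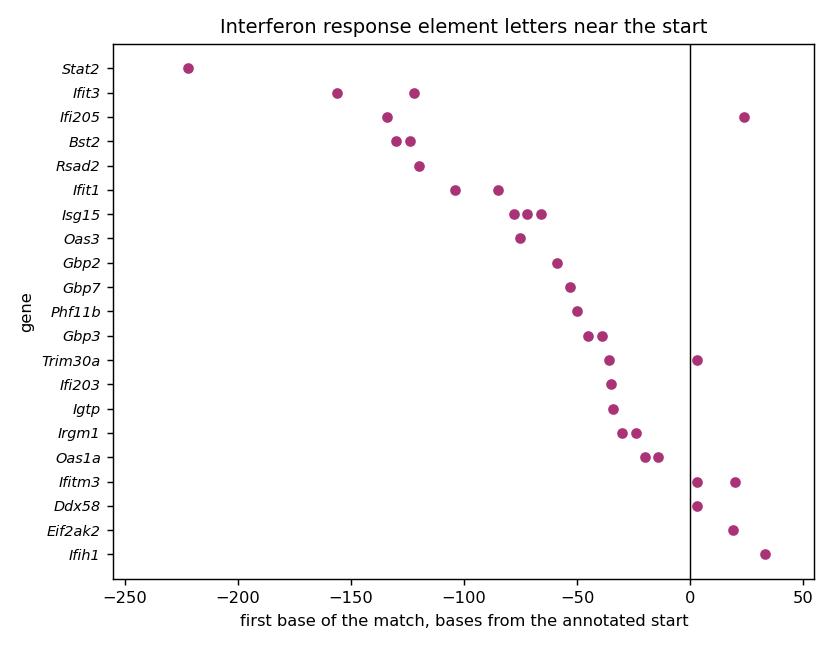
Position of each match of the element letters (GAAA, any 2 bases, GAAA) relative to the annotated start, in bases, for the 21 members that hold a match in the window from 250 bases before to 50 bases after the start; each point is the first base of 1 match. Most of the 32 matches, 25, lie before the start.

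The mean level of the interferon genes was higher in DKOITD 1, 3 and 4 than in WT, with ITD between these libraries and WT. In DKOITD 2 it was not, so the DKOITD group alone spanned the whole range of the 9 libraries. With all DKOITD libraries included, the members' median difference from ITD was 0.03, against 0.11 for all genes. The mean log2(RPKM + 1) over the 46 genes was 3.67, 3.09 and 3.89 in WT 1 to 3, 4.57 and 5.39 in ITD 1 and 2, and 5.92, 3.06, 5.71 and 5.65 in DKOITD 1 to 4. DKOITD 2 lay at the level of the lowest WT library, while the other DKOITD libraries were the highest of the 9. Counted as reads, the 46 genes took 0.241% to 0.323% of the recovered reads in WT, 0.436% and 0.806% in ITD, and 1.69%, 0.254%, 1.34% and 1.11% in DKOITD 1 to 4.

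**Figure D2:**
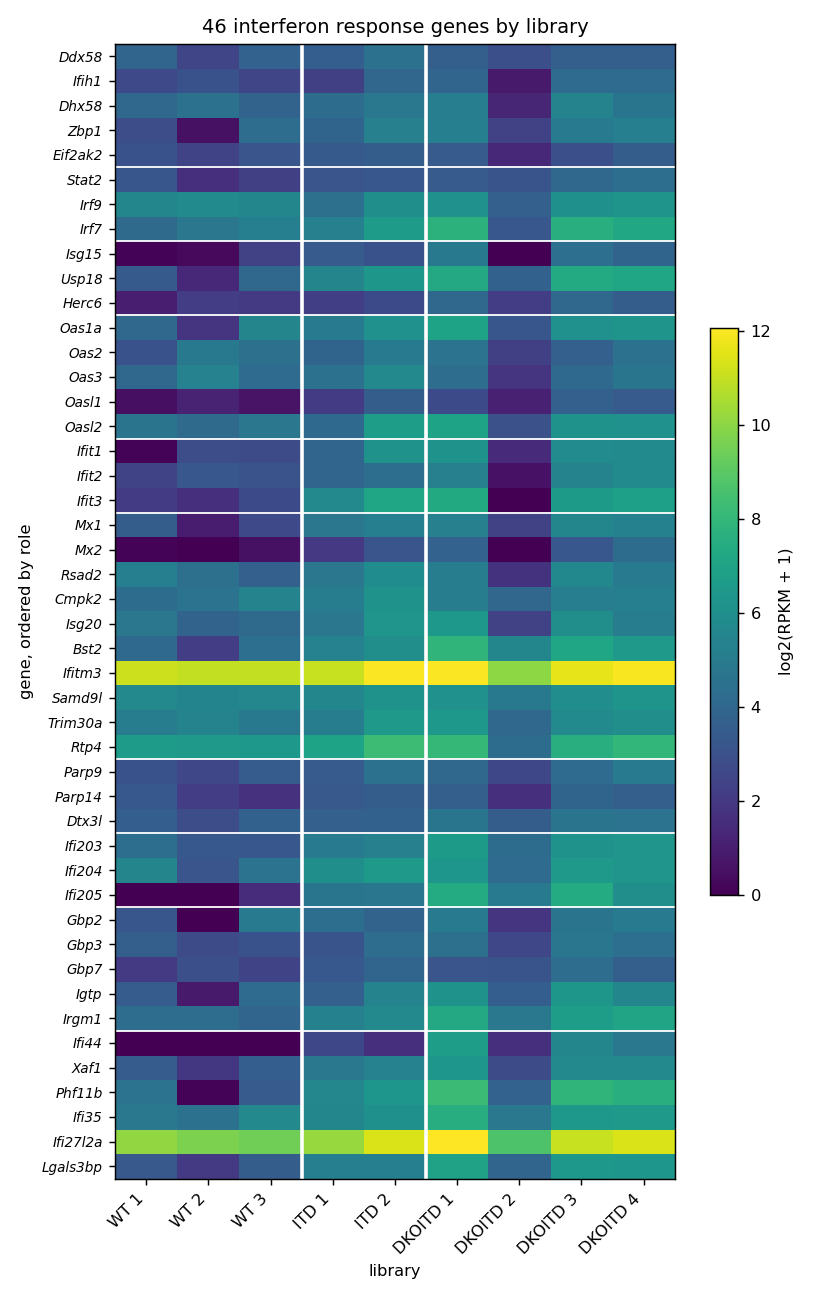
Heat map of log2(RPKM + 1) of the 46 genes (rows, ordered by role) in the 9 libraries (columns, by genotype). The colour scale runs from dark (low) to bright (high), and the DKOITD 2 column is darker than those of DKOITD 1, 3 and 4, with a mean of 3.06 against 5.92, 5.71 and 5.65.

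DKOITD 2 was the lowest of the 4 DKOITD libraries for 46 of the 46 genes, against 25.9% of all genes tested. It was below every other library of the study for 21 of them (6.01% of all genes). On the log2(RPKM + 1) scale it lay below the mean of DKOITD 1, 3 and 4 by a median of 2.502 over the members (differences from -6.91 to -0.58), where the median difference over all genes was 0.02. DKOITD 2 also had the fewest reads of the 9 libraries, and Isg15, Ifit3 and Mx2 are listed at 0 in it. For Ifit3, 3 reads in that library would have been 0.411 RPKM, while the other DKOITD libraries had 3891, 2064 and 3314 reads of this gene. The part of depth in the low values of DKOITD 2 was not tested.

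**Figure D3:**
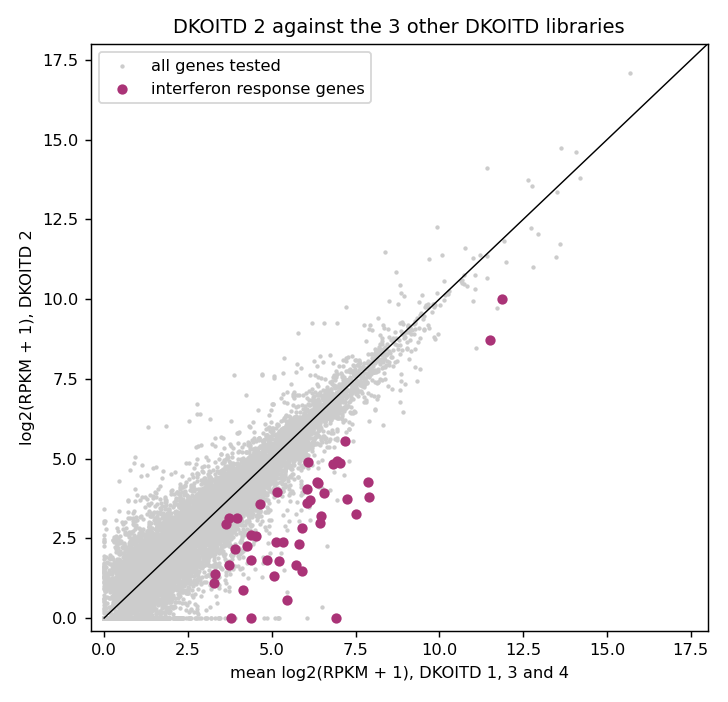
Log2(RPKM + 1) in DKOITD 2 (vertical) against the mean of DKOITD 1, 3 and 4 (horizontal), with the 46 members in colour, all 10868 genes tested in grey and the line of equality. The members lie below the line, by a median of 2.502, while all genes are centred near it.

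Between DKOITD and WT, 8 of the 46 genes rose and none fell (limma on log2(RPKM + 1), adjusted p under 0.05 over 10868 genes). The 8 are Ifi205, Bst2, Ifi44, Irgm1, Lgals3bp, Ifi203, Usp18 and Phf11b. Of all genes tested, 7.43% were called higher and 5.27% lower. At an unadjusted p under 0.05, 22 of the 46 were higher and none lower, against 17.9% of all genes higher and 12.3% lower. The difference was positive for 40 of the 46 (56.6% of all genes), with a median of 1.35 (log2) against 0.17 for all genes. With DKOITD 2 included, the DKOITD libraries lay wholly above the WT libraries for 6 members (Bst2, Ifi205, Gbp7, Irgm1, Ifi44 and Lgals3bp), a share close to that of all genes (14.1%).

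The count depends on the scaling and on single libraries, and the label numbers set DKOITD 1 to 3 apart from all other libraries. Scaled per recovered read, 22 of the 46 passed, against 23.1% of all genes called higher, and the members' median was 1.97 against 0.74 for all genes. Without DKOITD 2, 24 members passed, among them all 8, against 6.59% of all genes called higher and 4.6% lower. DKOITD 2 was the lowest DKOITD library for all 46, so leaving it out raises each of their differences by construction. Values without it, here and for single genes below, are therefore no further support. Without WT 2, 4 members passed, against 4.23% of all genes higher and 2.89% lower. In a model that also has a term for the series of label numbers, none of the 46 passed and 0.0368% of all genes were called higher, while the members' median difference was 1.88 against 0.10 for all genes, with all 46 positive. DKOITD 4 is the only DKOITD library that shares its series with the WT and ITD libraries. Both this model and the following counts rest on this library alone. Within that series, DKOITD 4 was above every WT library for 40 of the 46 genes (28.4% of all genes) and below every WT library for none (21%).

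Cell type markers differed between the groups as well. The summed RPKM of 9 neutrophil markers was 864547 to 1176878 in WT, 676929 and 722253 in ITD, and 57470, 198143, 34995 and 263212 in DKOITD 1 to 4. By this sum DKOITD 4 was above DKOITD 2, and both were above DKOITD 1 and 3. The summed RPKM of 11 conventional dendritic cell markers, led by MHC class II genes, was 44.3 to 1202 in WT, 4210.0 and 11369 in ITD, and 37921, 9385, 36157 and 36550 in DKOITD 1 to 4, so that DKOITD 2 was the lowest of its group here too. Of these 11, Zbtb46 and Xcr1 were at 0 in WT and ITD. Flt3 and Xcr1 were lowest in DKOITD 4 within the group, at 8.80 and 0 RPKM against 26.1 and 0.614 RPKM in DKOITD 2. The rest of the list was lowest in DKOITD 2. The 8 monocyte markers, led by Ly6c2, summed to 2740 to 3314 RPKM in WT, 3775 and 3959 in ITD and 2163 to 3406 in DKOITD. Ly6c2 was lower in every DKOITD library than in WT (-0.65 ± 0.27, limma adjusted p = 0.128). Ccr2 and Ms4a6c were higher (1.44 ± 0.36 and 1.73 ± 0.29, adjusted p = 0.0242 and 0.00456), and no other marker of the 8 passed. Plasmacytoid dendritic cells are the strongest producers of type I interferon. Their 9 markers summed to 3.10 to 7.88 RPKM in WT, 4.91 and 5.03 in ITD and 12.8 to 40.9 in DKOITD. Klk1 and Pacsin1 were at 0 everywhere, Siglech was at 0 in WT, ITD and DKOITD 2, and Spib was at 0 in WT and ITD. Tcf4 and Spib were higher in DKOITD than in WT (2.10 ± 0.46 and 2.33 ± 0.54, limma adjusted p = 0.0138 and 0.0189), while Runx2 differed by 0.03 ± 0.49. Erythroid markers ranged from 17.8 to 17156 RPKM within WT. B cell, T cell and NK cell markers summed to at most 70.8, 17.6 and 193 RPKM in any library, with Pax5, Cd3e and Prf1 at 0 in all 9. Among these, the B cell receptor chain Cd79b was higher in DKOITD than in WT (2.43 ± 0.44, limma adjusted p = 0.00669). The NK receptor chain Klrd1 was at 124, 15.8, 72.0 and 82.2 RPKM in DKOITD 1 to 4, at 39.9 RPKM in WT 2 and at 14.9 RPKM in ITD 2, and at 0 in the other libraries; Gzma was at 146 RPKM in WT 2 and at 0 elsewhere. Their part in the values of the interferon genes was not tested, and fewer cells of a type and less RNA per cell cannot be told apart in these bulk samples.

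Among the sensors of viral nucleic acid, none of 5 passed the test between DKOITD and WT. Ddx58 (RIG-I) and Ifih1 (MDA5) detect viral RNA in the cytoplasm, with differences of 0.04 ± 0.46 and 0.56 ± 0.77. Dhx58 (LGP2), which tunes both and had the highest mean of the 5 over all 9 libraries, although Zbp1 had the higher mean within ITD and within DKOITD, was measured at 15.4, 22.2 and 13.3 RPKM in WT 1 to 3, 18.5 and 27.2 RPKM in ITD 1 and 2, and 34.5, 1.47, 40.6 and 24.4 RPKM in DKOITD 1 to 4. DKOITD 2 was the lowest of the 9 libraries, and the other DKOITD libraries were the highest together with ITD 2. The group difference was near 0 (-0.01 ± 0.79, limma adjusted p = 0.993), and changed its sign with the libraries used: without DKOITD 2 it was 0.93. Zbp1, which binds nucleic acid in the Z form, had a difference of 1.85 ± 0.88, and the RNA-dependent kinase Eif2ak2 (PKR) one of -0.09 ± 0.55.

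None of the 3 transcription factors of the pathway passed either. Irf7, which drives the transcription of the interferon alpha genes, was the highest of them, at 16.8, 26.2 and 35.6 RPKM in WT 1 to 3, 36.7 and 97.4 RPKM in ITD 1 and 2, and 216, 8.68, 190.3 and 144 RPKM in DKOITD 1 to 4. DKOITD 1, 3 and 4 were above all WT and ITD libraries, and DKOITD 2 was below all of them. The difference was 1.75 ± 0.89 (limma adjusted p = 0.206), and 2.80 (adjusted p = 0.00415) without DKOITD 2. Over all 19 alternatives it ranged from 1.31 to 3.11. Stat2 differed by 1.37 ± 0.48 (adjusted p = 0.0821), and Irf9, its partner in the complex, by -0.09 ± 0.58. Exons of Irf7 overlap Phrf1 and those of Irf9 overlap Rnf31, so without strand their reads cannot be told apart.

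In the ISG15 system, 1 of 3 genes rose. Usp18, the protease that removes ISG15 and restrains the receptor, was measured at 9.77, 1.55 and 15.9 RPKM in WT 1 to 3, 43.2 and 82.7 RPKM in ITD 1 and 2, and 155, 12.2, 164 and 134 RPKM in DKOITD 1 to 4. DKOITD 1, 3 and 4 and both ITD libraries were above all WT libraries, and DKOITD 2 lay inside the WT range, so the groups overlap. The difference was 3.41 ± 0.86 (limma adjusted p = 0.0254) and was lost without WT 2, at 2.61 (adjusted p = 0.0929), and also without DKOITD 1, 3 or 4 (3.10, 3.08 and 3.17). Usp18 lies on chromosome 6 (121245906 to 121270917, plus strand, mm10) and shares exon sequence with Gm44148. Isg15, the ubiquitin-like modifier itself, was measured at 0.0707, 0.234 and 4.11 RPKM in WT 1 to 3, 9.87 and 7.33 RPKM in ITD 1 and 2, and 28.1, 0, 20.5 and 13.6 RPKM in DKOITD 1 to 4. The values are low per length, at 1, 2 and 36 reads in WT and 256, 0, 168 and 154 reads in DKOITD, with DKOITD 2 at 0. Its difference was 2.37 ± 1.01 (adjusted p = 0.14), and without DKOITD 2 it was 3.47 and passed. Herc6, the ligase that attaches ISG15 in the mouse, differed by 1.70 ± 0.56 (adjusted p = 0.0643).

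The oligoadenylate synthetases make the linked adenosines that switch on RNase L, and none of 5 passed. Oasl2, a synthetase-like protein and the highest of them, was measured at 23.9, 17.1 and 26.8 RPKM in WT 1 to 3, 16.5 and 107 RPKM in ITD 1 and 2, and 127, 6.89, 72.2 and 67.8 RPKM in DKOITD 1 to 4. ITD 1 and DKOITD 2 were below the WT libraries, and ITD 2 and DKOITD 1, 3 and 4 above them. The difference was 1.03 ± 0.84 (limma adjusted p = 0.422). Oas1a and Oasl1 had differences of 1.85 ± 0.91 and 1.96 ± 0.65, while those of Oas2 and Oas3 were negative, at -0.37 ± 0.61 and -0.79 ± 0.64. The negative values depend on the scale. With each library scaled to the same sum, all 46 members had positive differences, but the median of all genes moved up too, to 1.205 from 0.17.

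The IFIT proteins bind viral RNA, and showed the widest spread within DKOITD. Ifit3 was measured at 3.42, 2.08 and 5.62 RPKM in WT 1 to 3, 51.0 and 137 RPKM in ITD 1 and 2, and 161, 0, 95.5 and 111 RPKM in DKOITD 1 to 4. ITD 1, ITD 2 and DKOITD 1, 3 and 4 were all far above the WT libraries, while DKOITD 2 had no read. With DKOITD 2 the difference was 3.02 ± 1.38 (limma adjusted p = 0.163), and without it 4.75 ± 0.46 (adjusted p = 0.000453). Over all 19 alternatives the difference ranged from 2.30 to 4.75. Ifit1 and Ifit2 had differences of 2.88 ± 1.08 and 1.29 ± 0.996, and 3.99 and 2.51 without DKOITD 2. Reads of Ifit3 may be shared with its near-identical copy Ifit3b, which has no row of its own in the table.

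**Figure D4:**
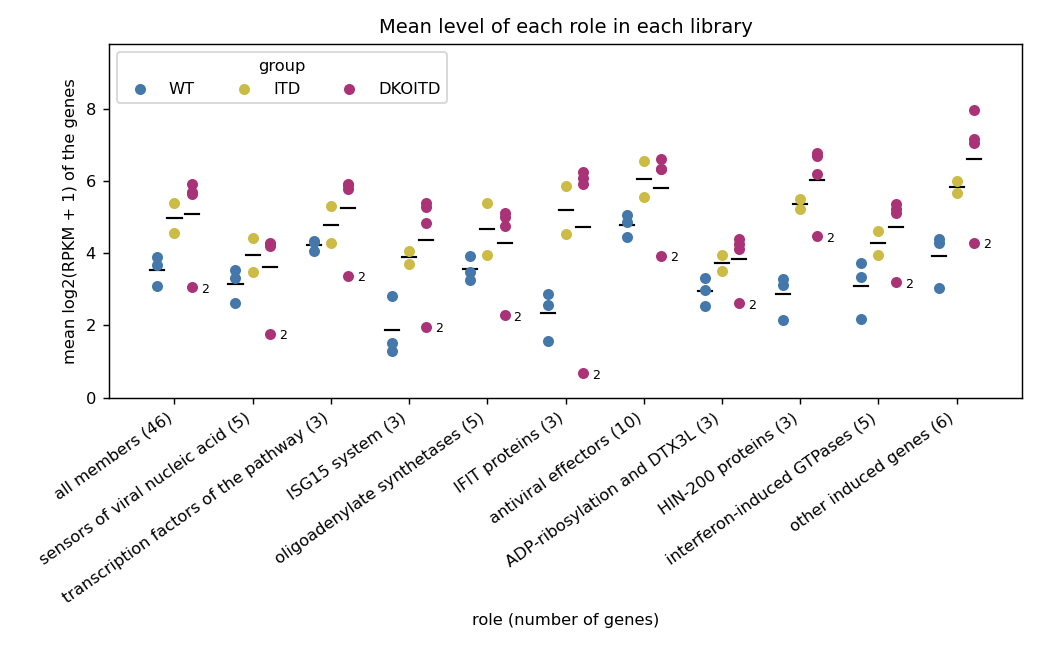
Mean log2(RPKM + 1) of the members of each role in each library, with 1 point per library, lines at the group means and DKOITD 2 marked with its number. For the IFIT proteins the 4 DKOITD libraries are at 6.24, 0.68, 5.93 and 6.10, and DKOITD 2 is the lowest DKOITD library in every role.

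Of 10 antiviral effectors, 1 rose. Bst2 (tetherin), which holds budding virus at the cell surface, was measured at 16.5, 3.58 and 19.9 RPKM in WT 1 to 3, 40.3 and 60.8 RPKM in ITD 1 and 2, and 239.7, 45.7, 137 and 89.2 RPKM in DKOITD 1 to 4. All 4 DKOITD libraries were above all WT libraries, and DKOITD 2 lay between ITD 1 and ITD 2. The difference was 3.20 ± 0.60 (limma adjusted p = 0.00741). Bst2 passed in all alternatives except the model with the label number term, where DKOITD 4 alone stands against WT (2.93). Bst2 lies on chromosome 8 (71534255 to 71537456, minus strand).

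Ifitm3, which blocks the entry of virus through the endosome, had the highest level per length of all 46 genes, at 2269.7, 2010.0 and 1961 RPKM in WT 1 to 3, 2113 and 4099 RPKM in ITD 1 and 2, and 4130.0, 1030.4, 3142 and 3994 RPKM in DKOITD 1 to 4. ITD 1 lay inside the WT range, and DKOITD 2 was the lowest of the 9. The difference was 0.38 ± 0.44 (limma adjusted p = 0.589). Mx1 and Mx2 belong to the dynamin-like GTPases. The C57BL/6 strain carries a defective Mx1, and Mx2 is annotated as a polymorphic pseudogene in mm10. Their differences were 2.22 ± 0.77 and 2.61 ± 0.86, and 2.96 and 3.55 without DKOITD 2, when both passed. Rsad2 (viperin) and its neighbour Cmpk2, a mitochondrial nucleotide kinase, had differences of -0.10 ± 0.77 and 0.10 ± 0.43, and the exonuclease Isg20 one of 0.67 ± 0.80. Samd9l, Trim30a and Rtp4 had differences of 0.21 ± 0.36, 0.43 ± 0.53 and 0.45 ± 0.75.

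Parp9 and Dtx3l form a complex that marks proteins with ADP-ribose and ubiquitin, and Parp14 is a related enzyme; none of the 3 passed. Dtx3l was the highest of them, at 11.1, 6.29 and 12.2 RPKM in WT 1 to 3, 11.9 and 12.4 RPKM in ITD 1 and 2, and 24.6, 10.9, 24.2 and 23.3 RPKM in DKOITD 1 to 4. DKOITD 1, 3 and 4 were close to each other and above the other 6 libraries. The difference was 0.99 ± 0.40 (limma adjusted p = 0.126), and those of Parp9 and Parp14 were 0.91 ± 0.55 and 0.80 ± 0.60. Exons of Parp9 and Dtx3l overlap, so their reads cannot be told apart.

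Of the 3 HIN-200 proteins, nuclear and cytoplasmic proteins of which several bind DNA, 2 rose. Ifi205 had the largest difference of all 46 genes, and was measured at 0.0331, 0 and 1.87 RPKM in WT 1 to 3, 24.8 and 25.3 RPKM in ITD 1 and 2, and 172, 29.7, 168 and 61.9 RPKM in DKOITD 1 to 4. WT libraries were at or near 0, ITD libraries were close to each other, and all 4 DKOITD libraries, DKOITD 2 included, were above both. The DKOITD minus WT difference was 5.92 ± 0.61 (limma adjusted p = 0.00052). It stayed past the threshold in every alternative except the model with the label number term, where DKOITD 4 alone stands against WT (5.45). Against ITD it was 1.73 ± 0.70 (adjusted p = 0.251), and no DKOITD library overlapped an ITD library, as for 17.3% of all genes.

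Ifi203 was measured at 19.3, 8.84 and 8.61 RPKM in WT 1 to 3, 30.6 and 37.6 RPKM in ITD 1 and 2, and 93.5, 18.1, 71.8 and 77.5 RPKM in DKOITD 1 to 4. ITD libraries were above all WT libraries, and DKOITD 2 was just below WT 1, which made the groups overlap. The difference was 2.19 ± 0.52 (limma adjusted p = 0.0213), and it was not past the threshold without WT 2 (adjusted p = 0.0629), DKOITD 1 (0.0658) or DKOITD 3 (0.0659). Ifi204, with the highest mean of the 3 over all 9 libraries, although Ifi205 had the higher mean within DKOITD, was measured at 44.0, 8.13 and 23.5 RPKM in WT 1 to 3, 63.6 and 91.7 RPKM in ITD 1 and 2, and 78.9, 17.8, 89.8 and 77.9 RPKM in DKOITD 1 to 4. ITD and DKOITD 1, 3 and 4 were above all WT libraries and DKOITD 2 was inside the WT range, with a difference of 1.41 ± 0.61 (adjusted p = 0.143). Ifi205 (chromosome 1, 174011998 to 174031810) and Ifi203 (173920407 to 173942672) lie within 100 kb of each other on the minus strand in a cluster of similar genes, and Ifi203 overlaps Mndal, so reads may be shared among them.

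Among 5 interferon-induced GTPases, which attack the membranes around intracellular pathogens, 1 rose. Irgm1, a regulator of the immunity-related GTPases, was measured at 18.6, 19.0 and 14.5 RPKM in WT 1 to 3, 38.8 and 50.2 RPKM in ITD 1 and 2, and 157, 27.9, 109 and 131 RPKM in DKOITD 1 to 4. WT libraries were close together, and all ITD and DKOITD libraries were above them, with DKOITD 2 below the ITD libraries. The difference was 2.30 ± 0.50 (limma adjusted p = 0.0138); Irgm1 lies on chromosome 11 (48861968 to 48871683, minus strand). Igtp, of the same family, differed by 2.56 ± 0.83 (adjusted p = 0.0618), and shares exon sequence with Irgm2. The guanylate-binding proteins Gbp2, Gbp3 and Gbp7, neighbours on chromosome 3, had differences of 1.37 ± 1.03, 0.90 ± 0.55 and 1.07 ± 0.45.

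Of the 6 other induced genes, 3 rose. Ifi44 was measured at 0, 0 and 0 RPKM in WT 1 to 3, 5.13 and 2.14 RPKM in ITD 1 and 2, and 108, 2.16, 45.8 and 27.0 RPKM in DKOITD 1 to 4. No read of it was recovered in WT, where 3 reads would have been 0.0551 to 0.0912 RPKM; ITD had 70 and 73 reads, and DKOITD 3799, 23, 1442 and 1178. DKOITD 2 was at the level of ITD 2, and the others were far above. The fitted difference of 4.70 ± 0.93 (limma adjusted p = 0.00916) depends on the pseudocount and is no bound on the fold, as it was 7.88 with a pseudocount of 0.1. Ifi44 lies on chromosome 3 (151730922 to 151749960, minus strand).

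Phf11b, a zinc finger protein of a small family, was measured at 23.4, 0.0760 and 10.2 RPKM in WT 1 to 3, 47.6 and 80.8 RPKM in ITD 1 and 2, and 300.2, 12.9, 239.7 and 187 RPKM in DKOITD 1 to 4. DKOITD 2 was inside the WT range and WT 2 was almost at 0. The difference was 4.14 ± 1.11 (limma adjusted p = 0.0313) and was lost in 7 of 19 alternatives, the most of the 8, among them without WT 2 (2.83, adjusted p = 0.112) and without DKOITD 1, 3 or 4 (3.69, 3.80 and 3.92). Phf11b (chromosome 14, 59320964 to 59341351, minus strand) has close relatives, Phf11a and Phf11d, with which it may share reads.

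Lgals3bp, a secreted protein that binds galectins, was measured at 9.36, 3.18 and 10.6 RPKM in WT 1 to 3, 35.5 and 36.2 RPKM in ITD 1 and 2, and 121, 14.1, 85.4 and 79.4 RPKM in DKOITD 1 to 4. All DKOITD and ITD libraries were above all WT libraries, with DKOITD 2 the lowest of them. The difference was 2.91 ± 0.64 (limma adjusted p = 0.0138), and 2.45 (adjusted p = 0.0509) without WT 2; the gene lies on chromosome 11 (118392751 to 118402092, minus strand). Ifi27l2a, the highest of these 6, was measured at 1088, 808 and 687 RPKM in WT 1 to 3, 1182 and 2622 RPKM in ITD 1 and 2, and 4273, 417, 2136 and 2664 RPKM in DKOITD 1 to 4. It was highest in DKOITD 1 and lowest in DKOITD 2, with a difference of 1.08 ± 0.63 (adjusted p = 0.265). Xaf1, a partner of the apoptosis inhibitor XIAP, and Ifi35 had differences of 2.11 ± 0.73 and 1.33 ± 0.53, and 2.89 and 1.82 without DKOITD 2, when both passed.

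Between ITD and WT, which differ in the Flt3 allele alone, none of the 46 genes passed the limma test, and 1 of all genes tested did (0.0092%). At an unadjusted p under 0.05, 14 of the 46 were higher and none lower (4.99% of all genes higher and 2.94% lower). The difference was positive for 45 of the 46, all but Irf9, with a median of 1.17 (log2) against 0.00 for all genes, of which 49.7% were positive. Both ITD libraries were above all 3 WT libraries for 25 of the 46 genes (10.1% of all genes). Ifit3 had the largest difference, 4.24 ± 1.646 (limma adjusted p = 0.563), followed by Ifi205 with 4.18 ± 0.74 (adjusted p = 0.148).

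The ITD libraries were not alike. ITD 2 was above ITD 1 for 43 of the 46 genes (48.4% of all genes), and above every WT library for 45 (22.8%). ITD 1 was above every WT library for 25 (21.5%). Oasl2, for example, was at 16.5 RPKM in ITD 1 and 107 RPKM in ITD 2, and Irf9 at 21.2 and 63.5 RPKM.

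Between DKOITD and ITD, which differ in Rag1Cre, none of the 46 passed by limma, against 0.156% of all genes called higher and 0.0552% lower. At an unadjusted p under 0.05, Ifi205 and Ifi44 were higher (9% of all genes) and none lower (6.65%). The differences were 25 positive (55.7% of all genes) and 21 negative, with a median of 0.03 against 0.11 for all genes. This split moved with the setting, to 44 positive (median 1.01, all genes 0.97) with equal sums, 37 (0.54, all genes 0.56) per recovered read, 41 (0.68, all genes 0.06) with the label number term and 13 (-0.43, all genes 0.08) with replicate numbers as a block. Ifi44 had the largest, 2.56 ± 1.05 (adjusted p = 0.26). Without single libraries the median ranged from -0.41 to 0.80, the upper end being without DKOITD 2. The comparisons with WT share the WT libraries, and those with ITD and with DKOITD share theirs, so their values are not independent.

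The rest of the pathway was described with 99 further genes, of which 96 have a row and 74 were tested. Between DKOITD and WT, 14 of the 74 rose and 1 fell, against 7.43% of all genes higher and 5.27% lower. Of 19 interferon ligands in the table, 17 are listed at 0 in every library, including Ifnb1, Ifng and all listed alpha genes. Ifne was at 0.25 RPKM in DKOITD 1 only, and Ifnk at 1.35 and 3.99 RPKM in DKOITD 3 and 4 only. A listed 0 is not read as absent RNA here, since the haemoglobin genes Hba-a1 and Hba-a2, which like the alpha interferons have near-identical copies, are also listed at 0 in all 9 libraries, while the haemoglobin gene Beta-s was at 17103 RPKM in WT 1.

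Among 9 receptor chains and kinases, Ifngr1 rose and Ifnlr1 fell. Ifngr1, the ligand-binding chain of the interferon gamma receptor and the highest of the 9, was measured at 139, 90.2 and 132 RPKM in WT 1 to 3, 216 and 183 RPKM in ITD 1 and 2, and 329.8, 451, 408 and 343 RPKM in DKOITD 1 to 4. All 4 DKOITD libraries were above the others, and DKOITD 2 was the highest, unlike for the members; the difference was 1.67 ± 0.26 (limma adjusted p = 0.00346). Ifnlr1, the specific chain of the interferon lambda receptor, differed by -2.89 ± 0.62 (adjusted p = 0.0133). The type I receptor chains had small differences, 0.32 ± 0.41 for Ifnar1 and -0.07 ± 0.34 for Ifnar2.

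Of 7 signal factors, Irf5 and Irf8 rose, by 1.55 ± 0.35 (limma adjusted p = 0.0153) and 1.42 ± 0.41 (adjusted p = 0.0419). Of 13 adaptors and kinases of interferon induction, Tmem173 (STING) and Mavs rose, by 2.38 ± 0.36 (adjusted p = 0.00333) and 1.99 ± 0.59 (adjusted p = 0.0444), and Unc93b1, the highest of them, differed by 0.77 ± 0.36.

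Trex1, the exonuclease that clears DNA from the cytoplasm, was the 1 of 7 negative regulators that rose, and the highest of them. It was measured at 60.6, 42.4 and 54.0 RPKM in WT 1 to 3, 167 and 243 RPKM in ITD 1 and 2, and 635, 161, 486 and 402 RPKM in DKOITD 1 to 4. All DKOITD libraries and both ITD libraries were above all WT libraries, and DKOITD 2 was below the ITD libraries. The difference was 2.84 ± 0.41 (limma adjusted p = 0.00284).

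Of 25 other type I induced genes, Phf11a, Phf11d, Ms4a4c and Ly6e rose, by 3.74 ± 0.65 (limma adjusted p = 0.00535), 3.89 ± 0.88 (0.0165), 2.397 ± 0.69 (0.0404) and 1.67 ± 0.34 (0.0111). Ifitm2, a relative of Ifitm3 and the highest of these 25, differed by 0.33 ± 0.24. Of 12 genes of the type II response, which is driven by interferon gamma, 4 rose. They are the MHC class II activator Ciita (3.12 ± 0.59, adjusted p = 0.00793), the GTPases Gbp4 (2.54 ± 0.55, 0.0132) and Tgtp1 (2.03 ± 0.60, 0.0442), and the immunoproteasome subunit Psmb8 (1.78 ± 0.46, 0.0275). Irf8, Mavs, Ms4a4c, Tgtp1 and Psmb8 each fell out of the called set in 8 or more of the alternatives.

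DKOITD 2 was the lowest DKOITD library for 22 of the 25 other type I induced genes and for 11 of the 12 type II genes, against 25.9% of all genes tested. It was so for 5 of the 7 negative regulators, 6 of the 13 adaptors and kinases of induction, 2 of the 9 receptor chains and kinases and 2 of the 7 signal factors. No pathway gene passed between DKOITD and ITD, or between ITD and WT, by limma; at an unadjusted p under 0.05 there were 7 higher and 2 lower in the former (9% and 6.65% of all genes), and 15 higher and none lower in the latter (4.99% and 2.94%).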

How the data were processed

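RNA was measured in 9 libraries (WT n = 3, ITD n = 2, DKOITD n = 4), grouped by the genotype in the labels. The authors deposited 1 table of RPKM by gene symbol. Per the submitters' processing notes, STAR 2.4.2a, SAMtools 1.1, HTSeq 0.6.1p1 and the build mm10 were used, in roles that these notes leave unsaid. How genes were annotated and counted is not given in the sources used.

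The members, gene lists and tests were chosen with earlier results of these data known. Every member is named; those past the threshold in any comparison and the highest of each role by mean RPKM are given in every library, and other pathway genes are named where they pass or are the highest of their list, except 1 that is not reported here. Genes with at least 1 RPKM in at least 2 libraries were fitted on log2(RPKM + 1) in 1 model over all 9 libraries (limma 3.58.1, R 4.3.3, lmFit and eBayes with trend; two-sided; Benjamini-Hochberg over all 10868 genes, threshold 0.05). Differences on this scale are too small for genes of low RPKM. The script was tested on simulated data. Depth was read from whole-read steps of RPKM (15564 of 15566 genes within 0.0001 reads). Positions are from GENCODE vM21 (mm10) and promoters from RefSeq (GRCm38.p6). Alternatives changed the pseudocount (0.1), the filter, the scaling, library weights, the replicate block, the label number series and the libraries used.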

Additional observations from a re-analysis of the deposited data

Results flagged for a closer look

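The 4 DKOITD libraries were checked for a library that stands apart, by the gap between the lowest or highest value and its neighbour as a share of the group's whole range on the log2(RPKM + 1) scale. For 4 samples the critical value is 0.829, which chance passes in about 1 of 20 groups. The 62 values checked are the 46 members, their mean and the further pathway genes called between DKOITD and WT. Of these, 21 passed, the mean among them, and in each of the 21 the library was DKOITD 2, as the lowest. The check was not run over all genes tested, so no share of all genes can be set beside this count. These values share libraries and are not independent, so the rate of 1 of 20 is no measure for their count. DKOITD 2 was already the lowest DKOITD library for all 46 members, so its being the flagged library adds no separate support.

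The mean of the 46 members had a gap of 0.908 of the range. Among the sensors, the gap was 0.955 for Ddx58, 0.917 for Ifih1 and 0.906 for Zbp1. Irf9 and Irf7 had gaps of 0.93 and 0.871, and Usp18 one of 0.922. All 3 IFIT genes passed, with 0.918 for Ifit1, 0.905 for Ifit2 and 0.898 for Ifit3. Of the antiviral effectors, Mx1 (0.911), Rsad2 (0.832), Cmpk2 (0.89) and Rtp4 (0.876) passed. Parp14 (0.883) and Dtx3l (0.935), Ifi203 (0.837) and Ifi204 (0.911), Gbp2 (0.896) and Gbp3 (0.858), and Phf11b (0.846) were the others.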

How the results depend on the processing

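Between DKOITD and WT the count of members called was 8, and it was 2 with no filter on low values (2.89% of all genes called higher). It was 35 with each library scaled to the same sum (44.9%), 22 scaled per recovered read (23.1%), and 22 without DKOITD 2 and WT 2 together (4.69%). The label number term leaves DKOITD 4 alone against WT, so its count, given with the main results, is not repeated here. Leaving out single libraries gave 4 to 24, with 4 without WT 2 (4.23% of all genes), 5 without DKOITD 1 or DKOITD 3 (3.48% and 2.99%), and 24 without DKOITD 2 (6.59%). The 15 further pathway genes called became 8 with no filter, 54 with equal sums and 36 per recovered read. Without single libraries they became 8 to 20 (9 without DKOITD 1 and 8 without DKOITD 3). The members' median difference of 1.35 became 2.53 with equal sums, where the median of all genes was 1.205 in place of 0.17; it was 1.88 against 0.10 with the label number term, where all 46 were positive, 1.97 against 0.74 per recovered read and 1.26 against -0.03 with quantile normalization, and 0.94 to 1.92 without single libraries. Of all genes called, 58.5% were higher, against 46.9% with quantile normalization, 97.5% with equal sums and 91.1% per recovered read.

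Between DKOITD and ITD no member was called, except 2 (Ifi205 and Irgm1) with equal sums and 1 (Ifi44) without DKOITD 2 and WT 2. Of all genes, 13.6% were called higher and 0.34% lower with equal sums, and 0.523% and 0.171% without DKOITD 2 and WT 2. Of the further pathway genes, 18 were called with equal sums and 3 without DKOITD 2 and WT 2. Per recovered read 1 was called (2.21% of all genes higher and 0.228% lower), and with library weights 3 (2.56% and 2.28%). Between ITD and WT, 0 to 1 members were called without single libraries: Ifi205 without WT 3 and Ifit3 without DKOITD 2. The DKOITD minus WT difference of Dhx58, -0.014, was 1.28 with equal sums, 0.69 per recovered read, 0.34 with library weights, 0.53 with the label number term, 0.19 without WT 2, 0.93 without DKOITD 2 and 1.13 without both; without single libraries it ranged from -0.43 (DKOITD 3 left out) to 0.93. The cause of these changes was not tested. The 8 genes called kept a positive difference in all 19 alternatives.

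Replicate numbers are shared between groups, but same-numbered WT and DKOITD libraries had correlations of deviations of -0.021, 0.071 and 0.063, and WT 3 correlated most with DKOITD 1 (0.166), so the numbers are not taken as pairs. With the replicate block, 7 members were called between DKOITD and WT (Ifi203 was lost), 10 of the further pathway genes, and 472 and 412 of all genes higher and lower, in place of 807 and 573.

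Depth limits DKOITD 2 most, with 2825728 reads from 100 cells, where 3 reads of Isg15 would have been 1.09 RPKM.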

Other observations

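The letters TTCNNNGAA, the core of the gamma-activated site, were found on either strand in 9 of the 35 members with a RefSeq promoter entry (25.7%), against 9.55% of all genes in the table. A match is a description of the window and not a site.

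Of the 21 members with the response element letters (GAAA, any 2 bases, GAAA), 5 were called between DKOITD and WT, with a median log2 difference of 1.37, and of the 14 without them 2 were called, Ifi44 and Lgals3bp, with a median of 1.31. The difference between both sets was not tested.

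Many members are neighbours in the genome: 19 of the 46 have another member within 100 kb. These include Ifit1, Ifit2 and Ifit3 on chromosome 19, Parp9, Parp14 and Dtx3l and also Mx1 and Mx2 on chromosome 16, and Rsad2 and Cmpk2 on chromosome 12. Of the 46, 16 have exons that overlap another annotated gene, whose reads a method without strand cannot separate.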
